A study of Rattus norvegicus with 9 samples.

Results

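A set of 10 synaptic genes was followed in whole rat brain: the postsynaptic scaffold genes Dlg4, Shank1, Shank2, Shank3 and Homer1, and the vesicle release genes Stx1a, Snap25, Syt1, Cplx1 and Syn1. Each name was matched to loci of the deposited assembly by its annotated gene name on the same strand, and the locus of highest mean count was taken for each name. This gave 10 loci of 21967 with a gene symbol, and of 114601 in all. They hold 36 of the 145707 assembled isoforms. No value other than the mean count decided which locus stood for a name, and all 10 loci passed the filter on low counts.

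At an excitatory synapse, vesicles filled with glutamate are held near the presynaptic membrane and fuse with it when calcium enters. Fusion is driven by SNARE proteins, among them syntaxin-1A (Stx1a) and SNAP-25 (Snap25) on the plasma membrane. Synaptotagmin-1 (Syt1) is the calcium sensor of fast release, complexin-1 (Cplx1) binds the assembled SNARE complex, and synapsin-1 (Syn1) tethers vesicles in their reserve pool. Across the cleft, PSD-95 (Dlg4) clusters glutamate receptors, the Shank proteins form a deeper scaffold layer, and Homer1 links Shank to metabotropic glutamate receptors.

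The study measured RNA in the whole brain of 9 male rats that had not received alcohol, with 3 rats of each of 3 genotypes. Homozygous rats carried 2 deleted alleles and heterozygous rats 1 deleted allele of Lrap, a long non-coding RNA gene from which 618 bp had been removed with CRISPR/Cas9 (line Crl:WI-Lrapem1Geh). Wild-type rats were Wistar animals from Charles River. Both mutant groups come from 1 edited line, and neither the ages nor a litter relation to the wild-type rats are given in the labels. P-values measure the spread between rats.

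Library depth ran from 27489383 to 46975919 expected counts, and no 2 libraries of a genotype agreed within sampling noise. The Lrap isoform that spans the deleted length had 0.243, 0.382 and 0.402 CPM (counts scaled to a common library total) in homozygous rats 1 to 3, 0.988, 1.03 and 1.12 CPM in heterozygous rats 1 to 3, and 2.52, 1.85 and 2.41 CPM in wild-type rats 1 to 3, so the libraries followed their labels. Wild-type rat 2 stood apart, with 40.4% of its counts on the mitochondrial genome, against 14.8% to 28.1% in the other 8 libraries. By the proportions of 55 spike-in sequences, this rat and the 3 homozygous rats formed 1 cluster of 4 libraries and the other 5 libraries the second. Fold changes and genotype orders that rest on wild-type rat 2 are given with and without it. Correlations over libraries always include this rat. The neuronal marker sum ranged over 2744 to 3012 CPM in homozygous rats, 2519 to 2905 CPM across the heterozygous rats and 2001 to 3157 CPM across the wild-type rats, and the sum for muscle and other tissue outside the brain over 4.35 to 7.45 CPM in all libraries.

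The 10 genes spanned a wide range of levels. Compared per length, as TPM averaged over the 9 libraries with the SD over libraries, Snap25 was highest at 147 ± 51.4 TPM. It had rank 130 of the 16576 symbol loci that passed the filter on low counts, to which all ranks here refer. Syt1 had 53.6 ± 16.6 TPM, Cplx1 51.7 ± 16.3 TPM and Dlg4 43.8 ± 10.6 TPM, at ranks 343, 358 and 417. Within libraries Syt1 was above Cplx1 in 3 of 9, whereas Syt1 and Cplx1 were each above Dlg4 in 8 of 9. Syn1 followed with 19.5 ± 5.82 TPM, Shank1 with 16.8 ± 4.77 TPM and Stx1a with 12.9 ± 2.65 TPM. Syn1 was above Shank1 in 7 of 9 libraries, and Shank1 above Stx1a in all 9. Homer1 had 9.29 ± 3.38 TPM, Shank2 5.80 ± 1.66 TPM and Shank3 5.50 ± 1.54 TPM. Shank2 was above Shank3 in 5 of 9 libraries, and both were lowest, at ranks 3557 and 3748, still above 77.4% of these symbol loci. The level of Shank3 leaves out other assembled loci of the same name, given below. So does that of Snap25, with other loci of 1259 and 70 mean counts against 16300 for the locus taken. Further same-strand loci not of their name overlap Shank2 and Syt1, with summed mean counts of 28.8% and 25.7% of theirs. Whether reads of those loci belong to the 2 genes was not tested. Snap25 was the highest of the 10 in every library. Release genes thus took the first 3 places and scaffold genes the last 3.

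Promoters of 7 of the 10 genes were in the RefSeq table of rat promoters (build GRCr8, 250 bases before to 50 bases after the gene start). Those of Stx1a, Dlg4 and Cplx1, which are among the genes of smallest p between homozygous and wild-type rats, and of Syn1, whose isoform shares differed most between genotypes, are shown so that their base composition can be compared. Shank3, which had a smaller p than Cplx1, is described below without its sequence. Capitals mark matches on either strand to the cAMP response element TGACGTCA or its 6-letter form TGACGT, the GC box GGGCGG, the EGR site GCGGGGGCG, the TATA box TATAAA, and the left and right parts of the RE1 site, TTCAGCACC and GGACAGC. The 6-letter form lies inside the full element, and EGR sites and GC boxes can overlap. Positions are chr12:27306422-27306721 (minus strand) for Stx1a, chr14:1328823-1329122 (plus strand) for Cplx1, chr10:55239534-55239833 (plus strand) for Dlg4 and chrX:3725495-3725794 (plus strand) for Syn1.
Stx1a: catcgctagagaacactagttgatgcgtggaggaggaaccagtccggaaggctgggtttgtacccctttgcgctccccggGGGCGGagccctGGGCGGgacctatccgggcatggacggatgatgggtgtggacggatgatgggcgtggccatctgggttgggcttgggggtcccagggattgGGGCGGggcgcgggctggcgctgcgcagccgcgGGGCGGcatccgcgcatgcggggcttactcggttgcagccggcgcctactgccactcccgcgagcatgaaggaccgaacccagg
Cplx1: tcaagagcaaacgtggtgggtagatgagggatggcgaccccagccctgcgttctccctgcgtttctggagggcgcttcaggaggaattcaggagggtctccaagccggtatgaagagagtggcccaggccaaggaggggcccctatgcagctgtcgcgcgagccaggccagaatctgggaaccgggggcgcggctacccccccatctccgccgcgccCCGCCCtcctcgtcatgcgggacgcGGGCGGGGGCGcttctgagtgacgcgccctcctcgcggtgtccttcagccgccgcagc
Dlg4: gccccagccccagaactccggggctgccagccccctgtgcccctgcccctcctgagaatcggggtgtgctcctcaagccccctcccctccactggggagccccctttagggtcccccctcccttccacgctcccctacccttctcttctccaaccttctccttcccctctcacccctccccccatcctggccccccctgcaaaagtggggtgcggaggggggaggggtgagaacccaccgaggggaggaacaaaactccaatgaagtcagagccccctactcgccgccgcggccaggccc
Syn1: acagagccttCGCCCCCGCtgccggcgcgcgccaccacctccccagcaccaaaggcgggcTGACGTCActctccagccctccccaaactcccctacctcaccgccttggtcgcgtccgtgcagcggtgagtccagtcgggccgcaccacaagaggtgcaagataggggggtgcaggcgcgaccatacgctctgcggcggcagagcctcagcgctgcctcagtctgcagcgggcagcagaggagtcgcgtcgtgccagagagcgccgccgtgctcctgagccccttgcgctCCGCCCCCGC

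Stx1a held 4 GC boxes and Cplx1 held 2 GC boxes and 1 EGR site, while Dlg4 held none of the motifs in this window. Syn1 held 1 full cAMP response element, which holds the 6-letter form on both strands, 1 GC box and 2 EGR sites. Among 33469 promoters of the same length, 33.1% hold a GC box, 2.73% an EGR site, 1.83% the full cAMP response element and 7.94% its 6-letter form. TATA boxes are in 14.2%, and the left and right RE1 parts in 0.356% and 6.59%. Syt1 held 3 GC boxes and 1 EGR site, Homer1 held 1 TATA box, and Shank3 held none of the motifs. Syn1 had 31 CpG dinucleotides and Stx1a and Cplx1 28 each, against a median of 7 over all promoters, while Dlg4 had 9 and Shank3 4. A match is a description of letters only.

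In homozygous against wild-type rats none of the 10 genes passed the test at an adjusted p of 0.05, with edgeR's quasi-likelihood test and Benjamini-Hochberg adjustment over 39057 loci (0% of all loci passed). DESeq2 and limma-voom also called none of the 10. At an unadjusted p under 0.05, 4 genes (Stx1a, Dlg4, Shank3 and Cplx1) were higher in homozygous rats and none lower on the CPM scale, while on the TPM scale the means of all 10 were lower. The background was 11.1% of symbol loci in either direction and 4.88% of all loci in the higher direction. That count was 2 without wild-type rat 2, 2 without heterozygous rat 1 and 1 without homozygous rat 1. Over all loci, 1991 of 40382, 3551 of 40916 and 2230 of 41903 had such a p in these fits, in either direction. The log2 fold change was positive for 9 of 10 genes, against 71.4% of symbol loci, with a median of 0.30 for the 10 genes and 0.14 for symbol loci. On the TPM scale, given after the values, all 10 were negative, as were 94.5% of symbol loci. Only Dlg4 had CPM groups that did not overlap, 1 of 10 genes against 14.5% of symbol loci and 7.28% of all loci.

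**Figure D1:**
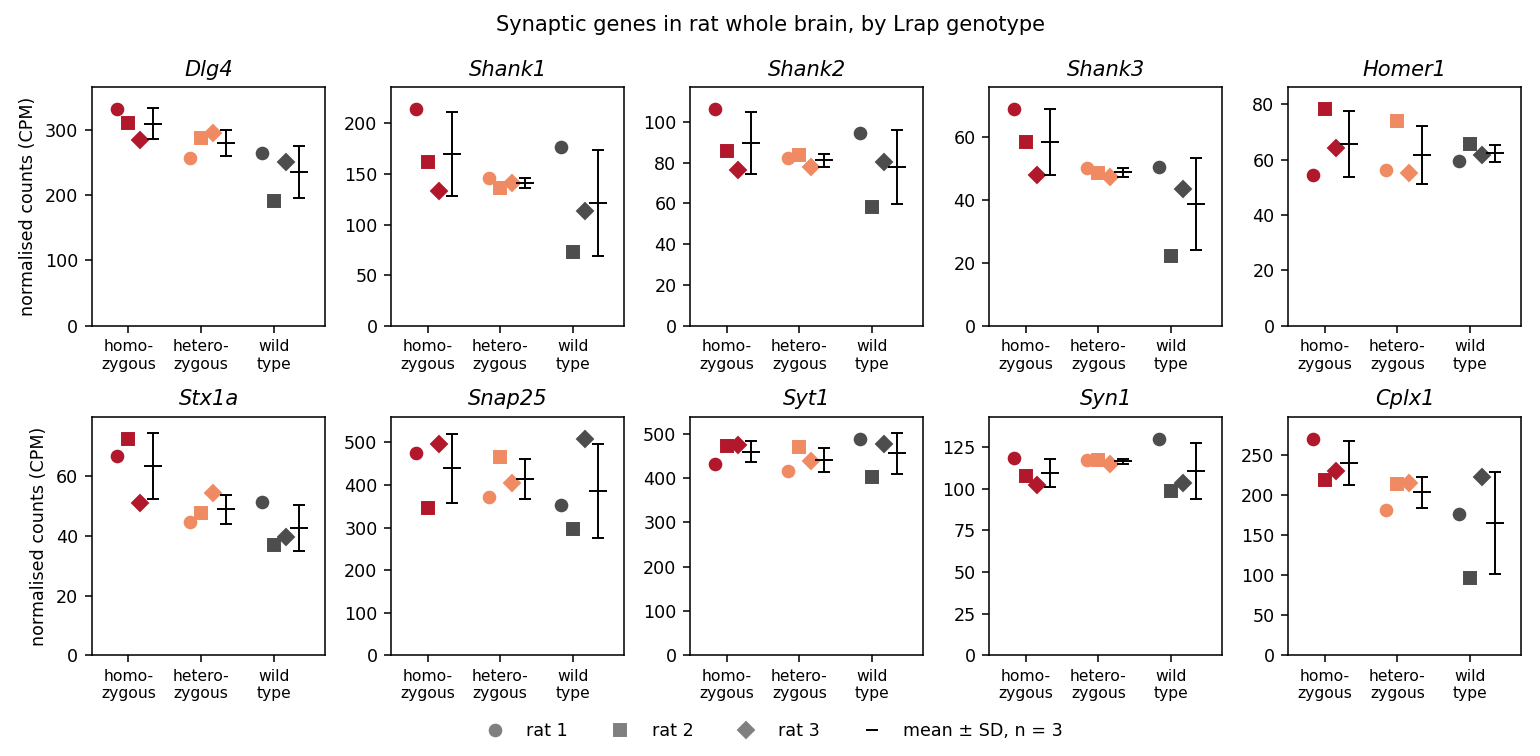
Level of each of the 10 genes in CPM (linear axes starting at 0, 1 panel a gene), with 1 point a rat and the mean ± SD of each genotype beside it (n = 3), homozygous, heterozygous and wild type from left to right. Dlg4 lay between 285 and 332 CPM in homozygous and between 191 and 265 CPM in wild-type rats, and the other 9 genes overlapped between these genotypes.

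Among the scaffold genes, Dlg4 (chr10:56627547-56655515, rn6, plus strand) encodes the membrane-associated guanylate kinase PSD-95. It had 332, 311 and 285 CPM in homozygous rats 1 to 3, 258, 287 and 295 CPM in heterozygous rats 1 to 3, and 265, 191 and 251 CPM in wild-type rats 1 to 3. Each homozygous rat lay above each wild-type rat, and the heterozygous rats lay across both ranges. The means were 309 ± 23.6 CPM in homozygous, 279.8 ± 19.6 CPM in heterozygous and 236 ± 39.4 CPM in wild-type rats (SD, n = 3 each). The edgeR log2 fold change of homozygous over wild type was 0.39 (SE 0.15, adjusted p = 0.544), and without wild-type rat 2 it was 0.26.

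Shank3 (chr7:130474552-130532234, plus strand) encodes a scaffold whose loss in humans is linked to Phelan-McDermid syndrome. It had 68.9, 58.2 and 47.9 CPM in homozygous rats 1 to 3, 50.2, 48.7 and 47.4 CPM in heterozygous rats 1 to 3, and 50.3, 22.3 and 43.6 CPM in wild-type rats 1 to 3. Wild-type rat 2 was the lowest library by far, and wild-type rat 1 lay above homozygous rat 3. The edgeR log2 fold change was 0.59 (SE 0.25, adjusted p = 0.544), and 0.31 without wild-type rat 2. Other assembled loci on the same strand are also named Shank3. One overlaps it, with a mean of 396 counts, and another lies at chr7:130532435-130540166, with a mean of 1004 counts. The locus taken had a mean of 1897 counts, so the levels given here cover only a part of the gene's counts. With all same-strand loci of the name summed the log2 fold change was 0.46.

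Shank1 (chr1:100299626-100343976, plus strand), the family member largely confined to neurons, had 214, 161 and 133 CPM in homozygous rats 1 to 3, 146, 136 and 141 CPM in heterozygous rats 1 to 3, and 177, 72.8 and 114 CPM in wild-type rats 1 to 3. Homozygous rat 1 was highest and wild-type rat 2 lowest, and wild-type rat 1 exceeded homozygous rats 2 and 3. The edgeR log2 fold change was 0.49 (SE 0.27, adjusted p = 0.552). Its 95% interval of -0.042 to 1.01 included 0. Leaving out wild-type rat 2 brought it to 0.22.

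Shank2 (chr1:217151166-217592763, plus strand), another scaffold of the family, had 106, 85.9 and 76.6 CPM in homozygous rats 1 to 3, 82.4, 83.7 and 77.7 CPM in heterozygous rats 1 to 3, and 94.7, 58.4 and 80.4 CPM in wild-type rats 1 to 3. The genotypes overlapped throughout. Its log2 fold change was 0.20 (95% interval -0.16 to 0.57, adjusted p = 0.693, edgeR), and 0.033 without wild-type rat 2.

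Homer1 (chr2:22909569-23014297, plus strand) differed from the other scaffold genes in its order of libraries. It had 54.5, 78.3 and 64.1 CPM in homozygous rats 1 to 3, 56.3, 73.9 and 55.2 CPM in heterozygous rats 1 to 3, and 59.4, 65.6 and 61.8 CPM in wild-type rats 1 to 3. Its lowest library was homozygous rat 1, which was the highest for Dlg4 and the 3 Shank genes, and its highest was homozygous rat 2. Its log2 fold change was 0.076 (95% interval -0.26 to 0.41, adjusted p = 0.884, edgeR), and 0.12 without wild-type rat 2.

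Of the SNARE genes, Stx1a (chr12:24682041-24710019, minus strand) had the smallest p of the 10. It had 66.8, 72.7 and 51.0 CPM in homozygous rats 1 to 3, 44.8, 47.8 and 54.3 CPM in heterozygous rats 1 to 3, and 51.5, 37.0 and 39.8 CPM in wild-type rats 1 to 3. Homozygous rats 1 and 2 lay above all other libraries, whereas homozygous rat 3 lay just below wild-type rat 1. Mean levels were 63.5 ± 11.2 CPM in homozygous, 49.0 ± 4.86 CPM in heterozygous and 42.7 ± 7.70 CPM in wild-type rats (SD, n = 3 each). The edgeR log2 fold change of homozygous over wild type was 0.57 (SE 0.18, adjusted p = 0.544). Without wild-type rat 2 it was 0.48, the largest of the 10 in that fit.

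Snap25 (chr3:129599046-129789948, plus strand), the partner SNARE on the plasma membrane, had 474, 347 and 497 CPM in homozygous rats 1 to 3, 372, 465 and 405 CPM in heterozygous rats 1 to 3, and 352, 297 and 509 CPM in wild-type rats 1 to 3. The highest and the lowest library were both wild type. Its log2 fold change was 0.19 (95% interval -0.21 to 0.59, adjusted p = 0.744, edgeR), and 0.029 without wild-type rat 2. The 2 plasma membrane SNARE genes thus gave different library orders, with homozygous rat 2 highest for Stx1a and lowest of its group for Snap25.

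The calcium sensor gene Syt1 (chr7:50084060-50639014, minus strand) was the least variable of the 10, with a coefficient of variation of 6.79% over 9 libraries. It had 432, 472 and 474 CPM in homozygous rats 1 to 3, 415, 469 and 437 CPM in heterozygous rats 1 to 3, and 489, 402 and 476 CPM in wild-type rats 1 to 3. The highest and the lowest library were wild type, and the values of both other genotypes lay between them. Its log2 fold change was 0.011 (95% interval -0.24 to 0.26, edgeR) and turned to -0.070 when wild-type rat 2 was left out and -0.0063 when homozygous rat 3 was.

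Cplx1 (chr14:2194933-2226598, plus strand), the complexin gene of the list, had 270.3, 219 and 229.8 CPM in homozygous rats 1 to 3, 181, 214 and 215 CPM in heterozygous rats 1 to 3, and 176, 96.9 and 222 CPM in wild-type rats 1 to 3. Homozygous rats 1 and 3 were highest, wild-type rat 3 lay between them and homozygous rat 2, and wild-type rat 2 was lowest. It averaged 239.6 ± 27.2 CPM in homozygous, 204 ± 19.4 CPM in heterozygous and 165 ± 63.4 CPM in wild-type rats (SD, n = 3 each). Its edgeR log2 fold change was 0.54 (SE 0.24, adjusted p = 0.544), against 0.27 without wild-type rat 2.

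Syn1 (chrX:1321315-1379198, plus strand) had 119, 108 and 102 CPM in homozygous rats 1 to 3, 117, 117 and 115 CPM in heterozygous rats 1 to 3, and 130.0, 98.9 and 103 CPM in wild-type rats 1 to 3. The values of the 3 genotypes overlapped, with wild-type rat 1 highest and wild-type rat 2 lowest. Its log2 fold change was -0.017 (95% interval -0.30 to 0.26, adjusted p = 0.971, edgeR) and -0.091 without wild-type rat 2, with a sign that turned under 7 of the alternatives. The Syn1 locus overlaps 4 loci on the opposite strand, with which it shares 5 bases of Araf, and the whole of LOC102555453, Timp1 and 1 unnamed locus. Of these 3, LOC102555453 had a mean of 928 counts and Timp1 of 59.6 counts, against 4445 counts for Syn1. The labels do not say whether counting used the strand, and whether reads were shared with these loci was not tested.

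Wild-type rat 2 was the lowest of the 9 libraries for 9 of 10 genes, the exception being Homer1, against 50.0% of symbol loci. Relative to each gene's mean log2 CPM over the 9 libraries, the median of the 10 genes was -0.47 in this rat, and that of symbol loci -0.24. Shank3 was at -1.06, Cplx1 at -1.01 and Shank1 at -0.92. Summed markers of neurons were 2001 CPM in wild-type rat 2, against 2497 to 3157 CPM in the other 8 libraries, and those of oligodendrocytes 2740.0 CPM in wild-type rat 2, against 4197 to 5988 CPM in the other 8 libraries. Astrocyte markers were 1262 CPM in wild-type rat 2, against 1383 to 2224 CPM in the other 8 libraries. GABAergic neuron markers were 178 CPM in wild-type rat 2, against 272 to 431 CPM in the other 8 libraries, while choroid plexus markers were 553 CPM in wild-type rat 2, against 208 to 429 CPM in the other 8 libraries. Excitatory forebrain neuron markers, at 1148 CPM, lay inside the range of the other libraries. Their part in the low synaptic levels was not tested. In bulk tissue, fewer cells of a type and less RNA per cell cannot be told apart.

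**Figure D2:**
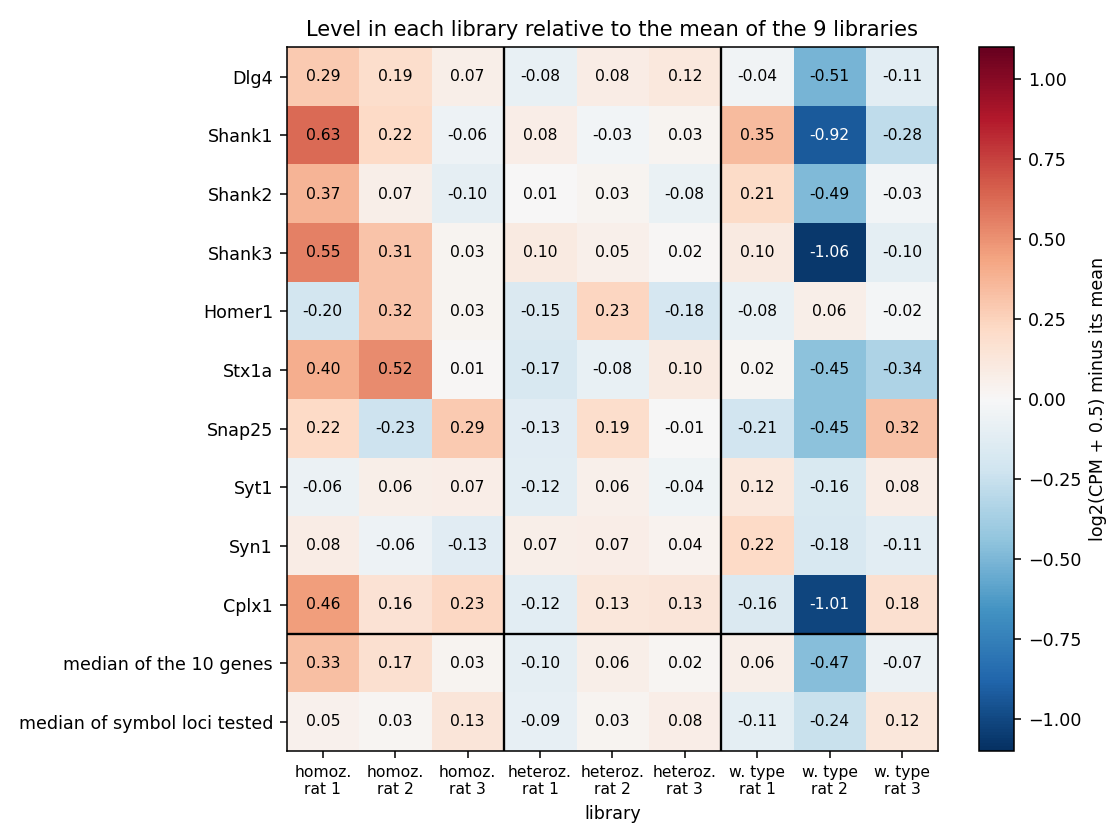
Difference of each gene's log2(CPM + 0.5) from its mean over the 9 libraries (colour and printed value, log2 units), with genes down the page, the medians of the 10 genes and of symbol loci below them, and libraries across, homozygous rats on the left, heterozygous rats in the middle and wild-type rats on the right. The column of wild-type rat 2 is lowest for all genes but Homer1, and homozygous rat 1 is highest for Dlg4, the 3 Shank genes and Cplx1.

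Without wild-type rat 2, the median log2 fold change of the 10 genes was 0.17, that of symbol loci was 0.05, and 2 genes kept an unadjusted p under 0.05 (Stx1a and Dlg4), against 4.93% of loci. Their adjusted p was 0.992 in edgeR. The log2 ratio of the homozygous mean to wild-type rat 2 alone, the wild-type library of the same spike-in cluster, was 1.39 for Shank3, 1.31 for Cplx1, 1.22 for Shank1, 0.78 for Stx1a and 0.70 for Dlg4. Against the mean of wild-type rats 1 and 3 it was 0.31 for Shank3, 0.27 for Cplx1, 0.22 for Shank1, 0.48 for Stx1a and 0.26 for Dlg4. A fit with the spike-in cluster as a covariate rests the contrast on wild-type rat 2, and there edgeR called Dlg4 (adjusted p = 0.0310), Cplx1 (0.0168), Shank1 (0.0391) and Shank3 (0.0170), 4 of 10 genes against 5.60% of loci. Within the cluster of the other 5 libraries no homozygous rat is present, so the cluster and the homozygous genotype cannot be told apart without this 1 rat.

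The scale of the values set the direction of most differences. TPM is scaled to a fixed total per library, of which the 10 loci of highest TPM took 64.3% to 72.6%. Among them, Rn7sl1, an RNA component of the signal recognition particle, had 60076, 51821 and 49083 CPM in homozygous rats 1 to 3, 34882, 30916 and 44624 CPM in heterozygous rats 1 to 3, and 24228, 11359 and 26029.8 CPM in wild-type rats 1 to 3. In TPM it had 151348, 138405 and 127870 in homozygous, 114996, 138871 and 114178 in heterozygous, and 109994, 46412 and 132658 in wild-type rats 1 to 3. Whether these loci account for the lower TPM of other loci was not tested. On log2 TPM the median symbol locus was lower by a difference of -0.55 in homozygous against wild-type rats, -0.28 in heterozygous against wild-type rats and -0.27 in homozygous against heterozygous rats. The medians of the 10 genes were -0.42, -0.23 and -0.20 for the same comparisons.

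On the log2(TPM + 0.1) scale all 10 genes were lower in homozygous than in wild-type rats, as were 94.5% of symbol loci. None of the 10 passed the limma test, which called 824 of 39057 loci. At an unadjusted p under 0.05 were Syn1, with -0.79 (adjusted p = 0.0732), and Syt1, with -0.77 (adjusted p = 0.0784). As many as 17234 of the 39057 loci had an unadjusted p under 0.05 in this limma test. The TPM groups did not overlap for Homer1, Syn1, Snap25 and Syt1, 4 of 10 genes lower in homozygous rats, against 55.7% of symbol loci. Taken relative to each library's median symbol locus, the differences were 0.41 for Shank3, 0.39 for Cplx1, 0.35 for Stx1a, 0.22 for Shank1 and 0.21 for Dlg4. They were 0.061 for Shank2, -0.091 for Homer1, -0.21 for Syt1 and -0.23 for Syn1, with Snap25 at -0.0015. The 5 genes of largest log2 fold change in CPM were also the 5 highest on this relative scale. Both scales come from the same counts, so a shared order of genes is no separate evidence.

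**Figure D3:**
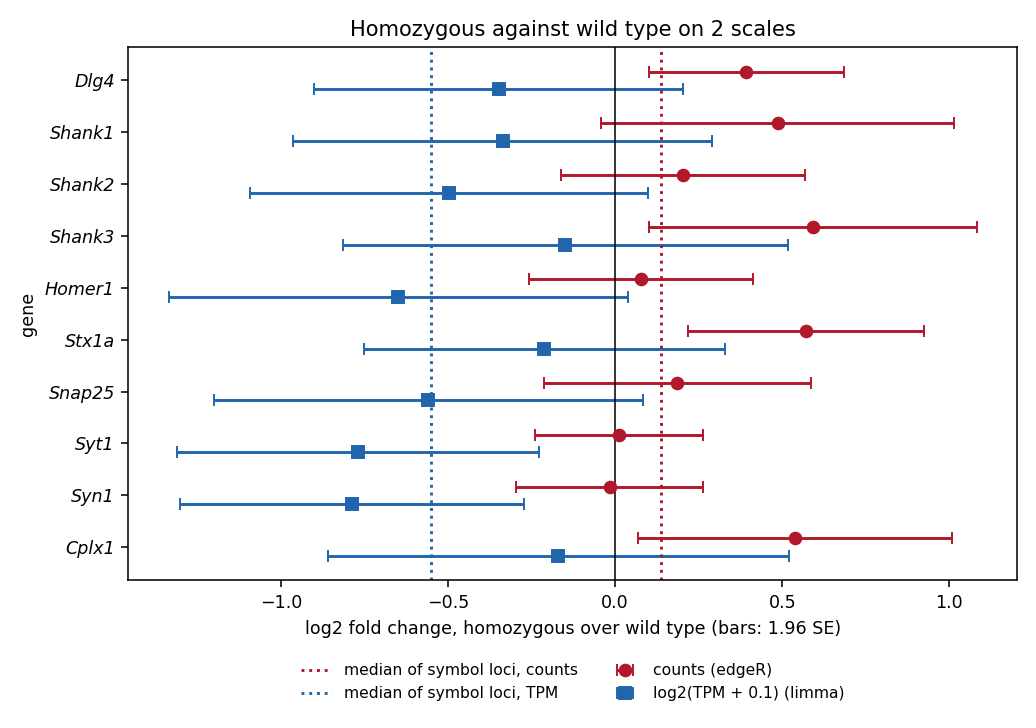
Log2 fold change of homozygous over wild-type rats for each gene on the count scale (edgeR) and on the log2(TPM + 0.1) scale (limma), each with a bar for its 95% interval from the SE, and lines at 0 and at the median symbol locus of each scale. Of the 10 genes, 9 lie above 0 on the count scale and all 10 below 0 on the TPM scale. Both scales come from the same counts, and the order of genes differs only in Stx1a and Cplx1 changing places.

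In heterozygous against wild-type rats none of the 10 genes was called by edgeR, DESeq2 or limma-voom (0.00768% of loci were called by edgeR), none had an unadjusted p under 0.05 (2.13% of symbol loci had one and were higher), and no gene had CPM groups that did not overlap (3.76% of symbol loci, higher). On the CPM scale 8 of 10 were positive, against 64.8% of symbol loci. On the TPM scale all 10 were negative, as were 87.6% of symbol loci. The largest were Shank3 with 0.33 (SE 0.25), Cplx1 with 0.30 (SE 0.24) and Dlg4 with 0.25 (SE 0.15), and on the TPM scale they were -0.020, -0.030 and -0.14. Without wild-type rat 2 they were 0.054 for Shank3, 0.030 for Cplx1 and 0.12 for Dlg4 in CPM. In that fit 5 of 10 genes were positive, and Syt1 (-0.13), Shank2 (-0.11), Snap25 (-0.057), Shank1 (-0.042) and Syn1 (-0.0041) were negative.

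Homozygous rats were not called against heterozygous rats for any of the 10 genes by edgeR, DESeq2 or limma-voom (0.00256% of loci were called by edgeR), and none had an unadjusted p under 0.05 (0.452% of symbol loci had one and were higher). On the CPM scale 9 of 10 were positive, against 69.5% of symbol loci. On the TPM scale all 10 were negative, as were 94.0% of symbol loci. Stx1a came nearest, with a log2 fold change of 0.37 (SE 0.18, adjusted p = 1.00, edgeR) in CPM and -0.011 on the TPM scale. Cplx1 was the only gene whose CPM did not overlap, higher in homozygous rats, 1 of 10 against 8.19% of symbol loci. On the TPM scale its groups overlapped, and Syn1 was the gene whose TPM did not overlap, lower in homozygous rats, 1 of 10 against 8.58% of symbol loci.

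By mean CPM, 7 of 10 genes stood in the order homozygous over heterozygous over wild type, against 46.0% of symbol loci. Without wild-type rat 2 this order was seen in 5 of 10 (Dlg4, Shank3, Homer1, Stx1a and Cplx1), against 30.3% of symbol loci. With all libraries, Homer1 and Syt1 had the wild-type mean between the homozygous and the heterozygous mean, and Syn1 was highest in heterozygous and lowest in homozygous rats. By mean TPM all 10 stood in the opposite order, wild type highest, as did 85.3% of symbol loci. The slope per deleted allele in edgeR called none of the 10 (0% of loci), nor did DESeq2 or limma-voom, and 4 had an unadjusted p under 0.05, all with a positive slope on the CPM scale though mean TPM ran the opposite way, against 13.2% of symbol loci in either direction. Stx1a had a slope of 0.29 log2 units per allele (SE 0.084, adjusted p = 0.444). The slopes of Shank3, Cplx1 and Dlg4 were 0.30, 0.27 and 0.20.

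Most of the 10 genes were carried by 1 or 2 isoforms. The authors' isoform percentage (IsoPct) is the share of a gene's TPM given to an isoform. Stx1a and Cplx1 had 1 assembled isoform each, and Shank1 and Shank2 had 10 and 11. Of the 30 isoforms tested none was called in any comparison by edgeR (0% of isoforms in homozygous against wild-type, 0.00157% in heterozygous against wild-type and 0% in homozygous against heterozygous rats), with 4, 1 and 1 of the 30 at an unadjusted p under 0.05, against 6.91%, 3.61% and 2.49% of isoforms. Isoform usage was called for 0 of the 8 genes with more than 1 isoform in each comparison, against 1.23%, 0.683% and 0.580% of genes, and 1, 1 and 0 of the 8 had an unadjusted p under 0.05, against 9.81%, 6.73% and 6.43%.

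Syn1 had the largest difference of shares. Its isoforms of 3166 and 3128 bases, 13 exons each, differ by 38 bases at chrX:1378110-1378147 (rn6). Synapsin I is known in a and b forms made by alternative splicing near the 3′ end, and the isoforms here were not assigned to these. The 3166-base isoform, which matches the reference transcript, took 38.6, 50.3 and 49.9% in homozygous rats 1 to 3, 54.4, 59.6 and 61.6% among heterozygous rats 1 to 3, and 40.8, 37.2 and 45.7% in wild-type rats 1 to 3. Each heterozygous rat lay above each homozygous and each wild-type rat. The difference of heterozygous minus wild-type means was 17.3 percentage points, with an exact two-sided permutation p of 0.1, the smallest that 3 against 3 allows, and 0.706 after Benjamini-Hochberg adjustment over the 24 comparisons made. In edgeR this isoform had a log2 fold change of 0.59 (SE 0.17, adjusted p = 1.00) in heterozygous over wild-type rats. Its usage test in edgeR had an adjusted p of 0.548. The order of shares did not follow the number of deleted alleles, since homozygous rats had a mean of 46.3% against 41.2% in wild-type rats.

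Shank2 was the other gene whose most used isoform did not overlap between genotypes by IsoPct, though with shares from counts its groups did overlap. Its isoform of 8172 bases and 16 exons took 57.3, 52.4 and 56.4% in homozygous rats 1 to 3, 59.4, 60.9 and 54.4% among heterozygous rats 1 to 3, and 61.9, 59.2 and 59.9% in wild-type rats 1 to 3, a difference of -4.97 percentage points in homozygous minus wild-type rats (exact permutation p = 0.1). The longest form, of 9603 bases and 25 exons, took 16.3% on average. Across the 8 genes and 3 comparisons, 3 of 24 pairs of groups did not overlap, against 11.4% of such pairs (14.3% in homozygous against wild-type, 9.54% in heterozygous against wild-type and 10.2% in homozygous against heterozygous rats) over all symbol loci with 2 or more tested isoforms.

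Shank1 divided its output mainly among 3 isoforms, of which the first had 32.0% and the third 22.8% on average, while the second ranged from 17.1% to 35.9%. The first, of 7080 bases, took 43.5, 31.8 and 34.1% in homozygous rats 1 to 3, 33.8, 30.9 and 32.0% among heterozygous rats 1 to 3, and 34.4, 18.9 and 28.6% in wild-type rats 1 to 3. Wild-type rat 2 was lowest and homozygous rat 1 highest, as for the total Shank1 level. In homozygous rat 1 an isoform of 3516 bases held 20.2%, which was listed at 0 in the other 8 libraries, and the third isoform held 2.44%, against 18.9% to 38.4% elsewhere. The usage test of homozygous against wild-type rats gave an adjusted p of 0.386 in edgeR.

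The remaining genes had the same leading isoform in every library. Dlg4 was 85.6% a form of 3066 bases and 14.4% a form of 4996 bases that extends 1916 bases further at its 3′ end, and the shorter form ranged over 86.1% to 88.4% in homozygous, 83.8% to 86.3% in heterozygous and 80.6% to 87.6% in wild-type rats. Homer1 was 64.1% a form of 2122 bases and 35.9% a form of 6646 bases, the second with 4619 bases of its own at the 3′ end. Shank3 was 89.7% and Snap25 90.1% of 1 form. Syt1 was 67.6% a form of 4480 bases and 32.4% a form of 4687 bases.

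**Figure D4:**
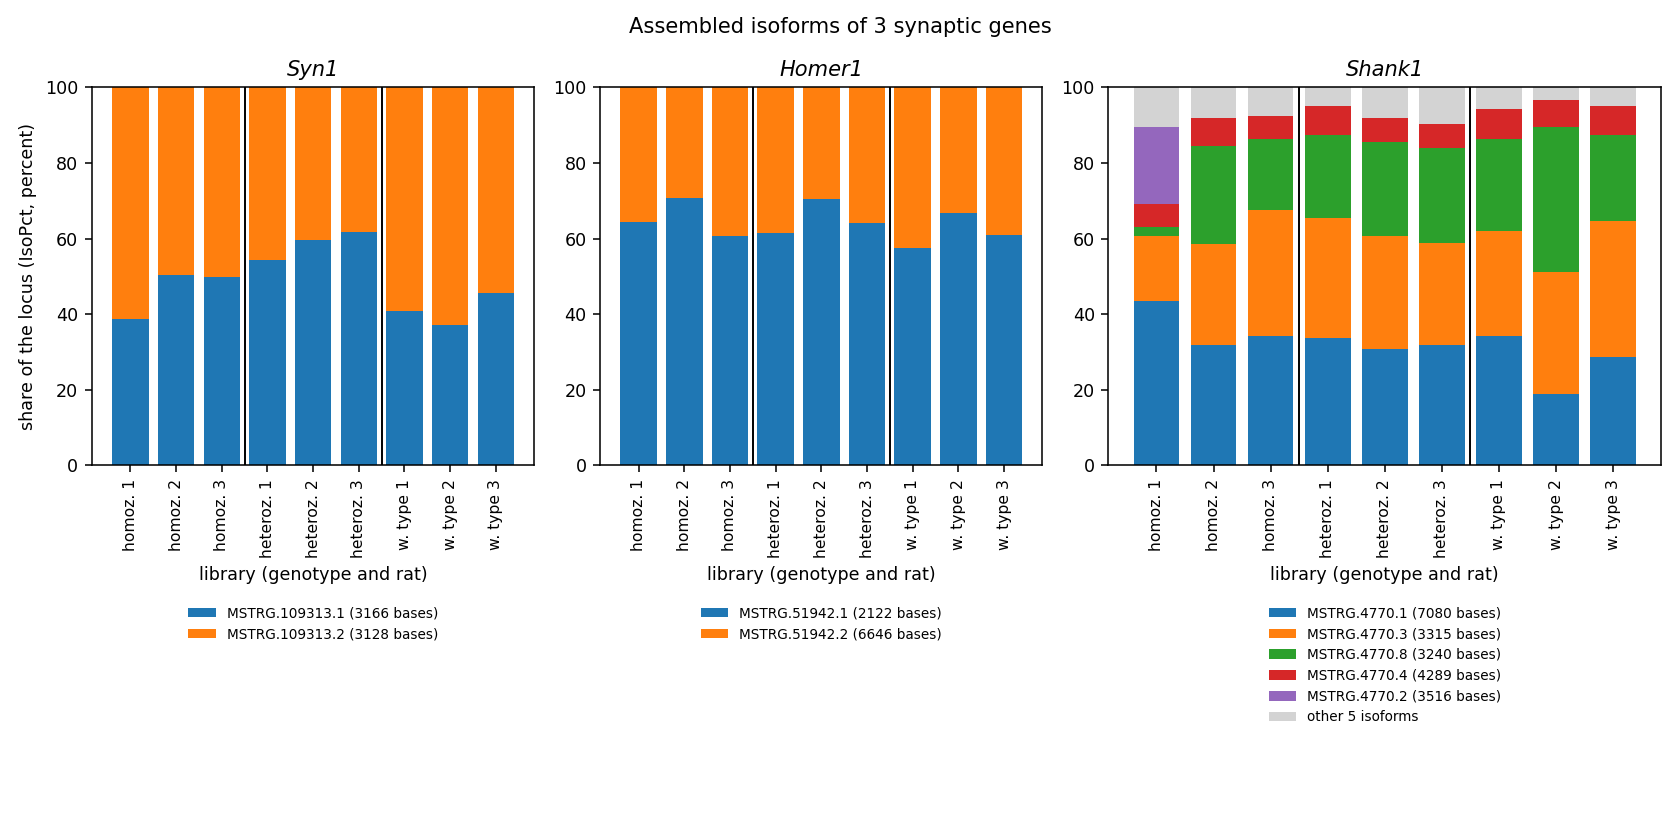
Shares of the assembled isoforms (IsoPct, percent of a gene's TPM, stacked from 0 to 100) of Syn1, Homer1 and Shank1 in each rat, homozygous, heterozygous and wild-type rats from left to right. The Syn1 isoform of 3166 bases lies at 54.4% to 61.6% in heterozygous rats, above all other libraries, and the Shank1 isoform of 3516 bases is seen in homozygous rat 1 alone.

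The libraries also differed in markers of brain regions within a genotype. Gabra6, a GABA-A receptor subunit of cerebellar granule cells, had 66.2, 0.583 and 56.6 CPM in homozygous rats 1 to 3, 15.7, 23.7 and 34.9 CPM in heterozygous rats 1 to 3, and 2.29, 4.31 and 103 CPM in wild-type rats 1 to 3. Summed cerebellar markers were 74.2 to 633 CPM in homozygous rats, 223 to 396 CPM across the heterozygous rats and 77.6 to 802 CPM across the wild-type rats, so the homozygous and the wild-type group each held libraries at both ends. Over the 9 libraries log2 CPM of Snap25 followed that of Gabra6, with a Pearson r of 0.85 (exact permutation p = 0.00442, adjusted p = 0.0442 over 10 relations) and a Spearman rho of 0.92 (exact permutation p = 0.00131, adjusted p = 0.0131). Leaving out the 2 libraries farthest from the median of Gabra6, wild-type rat 1 and homozygous rat 2, gave r = 0.94. Of the libraries then left, wild-type rat 2 alone had low Gabra6 (4.31 CPM, the next 15.7 CPM), and no r was taken without it. The spike-in clusters hold 4 and 5 libraries, and with fewer than 6 no r is given within them.

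No other gene of the 10 passed this adjustment. Cplx1 came nearest, with a rho of 0.68 (exact permutation p = 0.0503, adjusted p = 0.252) and an r of 0.47, or 0.90 without the same 2 libraries. The r of the remaining 8 genes ran from -0.50 for Homer1 to 0.20 for Dlg4. Without the same 2 libraries it was 0.75 for Syt1, 0.73 for Shank3, 0.72 for Dlg4, 0.69 for Shank2, 0.62 for Shank1, 0.50 for Stx1a, 0.18 for Syn1 and -0.27 for Homer1. The value for most of the 10 genes thus changed with these 2 libraries. Wild-type rat 2, then the lowest library for Gabra6 and for most of the 10 genes, was kept. Its weight in these values was not tested. With Gabra6 as a covariate in edgeR the log2 fold change of Snap25 in homozygous over wild-type rats was 0.15, and no gene of the 10 was called.

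**Figure D5:**
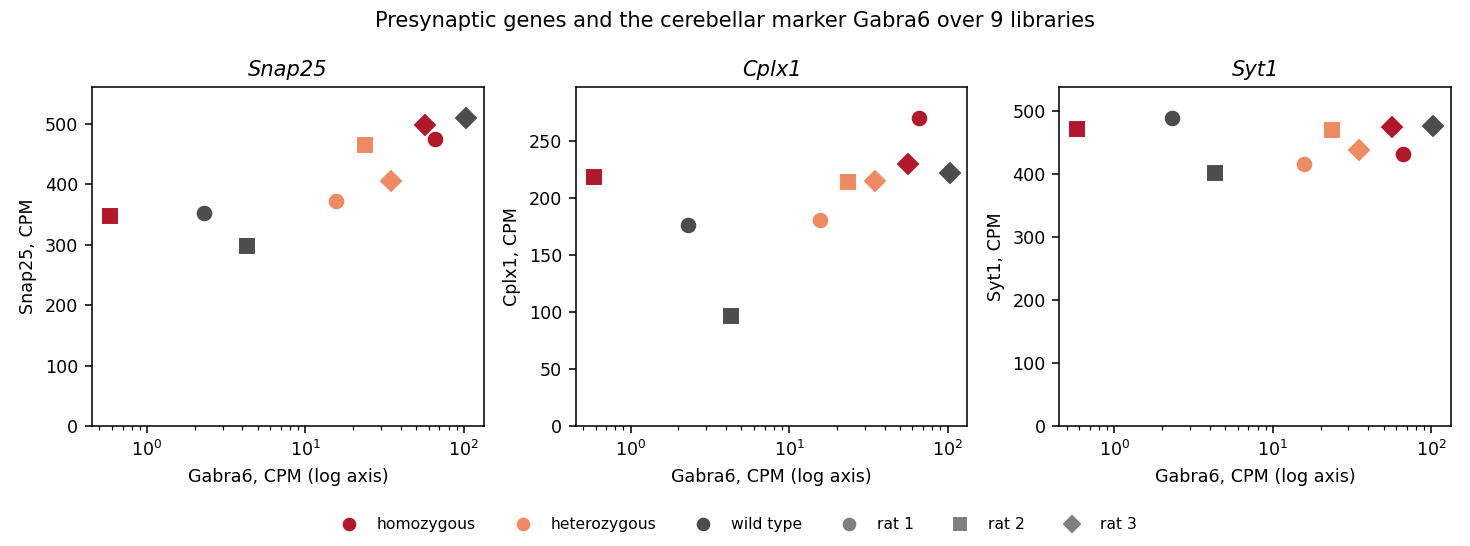
Level of Snap25, Cplx1 and Syt1 (CPM, linear axis from 0) against that of Gabra6 (CPM, log axis), 1 point a library, coloured by genotype. Snap25 is higher in libraries with more Gabra6, with homozygous and wild-type rats at both ends of the axis, and Syt1 is nearly level over all 9 libraries.

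Other genes of the same synaptic machinery were read from lists of related genes. Of 57 genes of presynaptic release, 56 were tested, and in homozygous against wild-type rats none was called, 44 had a positive log2 fold change in CPM (56 were lower by mean log2 TPM, where the symbol median was -0.55), and 8 (14.3%) had an unadjusted p under 0.05, all higher, against the 11.1% of symbol loci given above. Their median log2 fold change was 0.18, that of symbol loci 0.14. Rims4, an active zone protein, had 45.7, 44.3 and 43.5 CPM in homozygous, 36.8, 40.1 and 42.5 CPM in heterozygous and 35.2, 25.1 and 33.7 CPM in wild-type rats, so that each homozygous rat lay above the rest. Its log2 fold change was 0.51 (SE 0.16, adjusted p = 0.544, edgeR). Syngr3, a vesicle membrane protein, had 51.1, 58.5 and 53.5 CPM in homozygous, 40.1, 42.9 and 45.3 CPM in heterozygous and 42.7, 32.6 and 43.9 CPM in wild-type rats, again with no overlap, and a log2 fold change of 0.45. Ppfia3, a liprin of the active zone, and Napa, which with NSF takes SNARE complexes apart, had log2 fold changes of 0.46 and 0.42. Rims4, Syngr3, Ppfia3 and Napa were named for their smallest p in this comparison, so large fold changes and little overlap go with that choice. The 3 of highest TPM were named by level. Dnm1, the dynamin of vesicle retrieval, had 0.22, Cplx2 0.084 and Syp, the vesicle protein synaptophysin, 0.12.

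Of 55 genes of the postsynaptic scaffold, 52 were tested, none was called in homozygous against wild-type rats, 41 were positive in CPM (47 were lower by mean log2 TPM) and 8 (15.4%) had an unadjusted p under 0.05, all higher. Their median was 0.14, level with symbol loci. Psd, an exchange factor for ARF6, had 116, 89.6 and 77.1 CPM in homozygous, 57.0, 67.2 and 72.2 CPM in heterozygous and 62.9, 37.7 and 47.3 CPM in wild-type rats, and its log2 fold change was 0.93 (SE 0.21, adjusted p = 0.544, edgeR). All 3 homozygous rats lay above the other 6, though Psd, Ctnnb1, Lrrc4b and Dlgap3 were likewise named for their smallest p in this comparison. Ctnnb1, beta-catenin, had 167, 165 and 162 CPM in homozygous, 124, 146 and 152 CPM in heterozygous and 118, 84.8 and 145 CPM in wild-type rats and a log2 fold change of 0.51. Lrrc4b, a synaptic adhesion molecule, and Dlgap3, which binds PSD-95 and Shank, had 0.78 and 0.65. Among the most abundant, the kinase gene Camk2a was at -0.29, Cyfip2 at 0.11 and Epb41l1 at 0.14. In heterozygous against wild-type rats 2 presynaptic and 0 postsynaptic genes had an unadjusted p under 0.05 and were higher (2.13% of symbol loci), and in homozygous against heterozygous rats 1 of each list (0.452%). No gene of either list was called in these comparisons by edgeR.

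The genes whose level over the 9 libraries was most like the average of the 10, among 8140 other symbol loci of at least 10 CPM, were Rnf157, with a Pearson r of 0.99, RGD1562618 with 0.99, Fscn1 with 0.98, Flrt1 with 0.98 and Dgcr6 with 0.98. These are descriptions over libraries of unequal makeup. Rnf157, a ubiquitin ligase gene, had 67.2, 66.8 and 61.3 CPM in homozygous rats 1 to 3, 57.7, 63.7 and 59.4 CPM in heterozygous rats 1 to 3, and 61.2, 43.5 and 58.1 CPM in wild-type rats 1 to 3.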

How the data were processed

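The submitters' processing notes name cutadapt, HISAT2, StringTie, RSEM and build rn6, without version, order or strand setting. The libraries were stranded, rRNA-depleted and read in pairs, per the labels' protocols. Deposited by the authors were expected counts from RSEM for loci and isoforms, TPM (scaled by the authors per effective length to a fixed library total) and isoform shares in percent. The count table and the library files held 0 differing values. The 99 spike-in loci entered no library size or test.

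The estimated counts were rounded, filtered with filterByExpr, scaled by TMM and fitted over all 9 libraries with edgeR 4.0.16 (quasi-likelihood, robust) in R 4.3.3. Adjusted p is Benjamini-Hochberg over 39057 loci or 63699 isoforms, with a threshold of 0.05, and usage was tested with diffSpliceDGE over 9659 genes. The common biological coefficient of variation was 0.277. CPM uses TMM-scaled library sizes. Alternatives were limma 3.58.1, DESeq2 1.42.0, other size factors, no filter, the legacy fit, log2(TPM + 0.1), covariates, summed loci, the replicate number and each library left out. Intervals called 95% are the log2 fold change ± 1.96 SE from the fit. With 3 rats a genotype they can be narrower than the edgeR test allows. The edgeR tests of loci, slope, isoforms and usage, and DESeq2 and limma-voom, were run on simulated counts, and the other steps were not.

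The named genes are all 10 genes, their isoforms of highest share, and of each pathway list the 4 of smallest p and the 3 of highest TPM. The members and lists were chosen with earlier results of these data known. Likeness was Pearson r of log2(CPM + 0.5) with the mean z-score of the 10 genes. Promoters are from RefSeq (GRCr8), and no position was moved between builds.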

Additional observations from a re-analysis of the deposited data

How the results depend on the processing

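Isoform and slope calls of the 10 genes stayed at 0 under every alternative run, as did locus calls in heterozygous against wild-type and homozygous against heterozygous rats. Locus calls of homozygous against wild-type rats moved to 4 with the spike-in covariate. The count at an unadjusted p under 0.05 was 7 with that covariate, against 10569 of 39057 loci in either direction. It was 2 on the TPM scale, against 17234 of 39057 loci. With each library left out it ran from 1, without homozygous rat 1 (2230 of 41903 loci), to 5, without wild-type rat 3 (11131 of 41618 loci). The median log2 fold change became 0.66 (homozygous against wild type) and 0.65 (homozygous against heterozygous) with the covariate. On the TPM scale the medians were -0.42, -0.23 and -0.20 for homozygous against wild type, heterozygous against wild type and homozygous against heterozygous. Within the 5 libraries of the second spike-in cluster, chosen after seeing the data, heterozygous against wild-type rats had a median of 0.022 and 0 calls. Usage calls were 1 without a low-count filter in homozygous against wild-type and in homozygous against heterozygous rats, and 0 to 1 in homozygous and heterozygous against wild-type rats when each library was left out, with Shank1 called without wild-type rat 1. Over all genes, 118 and 70 of 11129 were called without the filter. Without wild-type rat 1, 75 and 66 of 9900 genes were called in homozygous and in heterozygous against wild-type rats. The number of share comparisons without overlap was 2 with shares from counts and 3 to 7 with each library left out.

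On the TPM scale, homozygous against wild type reversed for Dlg4 -0.35, Shank1 -0.34, Shank2 -0.50, Shank3 -0.15, Homer1 -0.65, Stx1a -0.21, Snap25 -0.56, Syt1 -0.77, Cplx1 -0.17. Heterozygous against wild type reversed for Dlg4 -0.14, Shank3 -0.020, Stx1a -0.20, Cplx1 -0.030, and homozygous against heterozygous for Dlg4 -0.21, Shank3 -0.13, Stx1a -0.011, Cplx1 -0.14. Homer1 was -0.053 without homozygous rat 2, and -0.053 to 0.20 over all libraries left out. Syn1 was 0.019 with DESeq2 size factors, 0.0095 without a filter, 0.018 with DESeq2, 0.15 with the spike-in covariate, and -0.091 to 0.11 with each library left out (0.11 without wild-type rat 1, 0.018 and 0.036 without homozygous rats 2 and 3). Syt1 ran from -0.070 to 0.073 (-0.070 without wild-type rat 2, -0.0063 without homozygous rat 3). The cause was not tested. Whether the replicate numbers pair the rats could not be decided. Correlations of 9 same-numbered pairs ran from -0.18 to 0.40 and those of pairs with different numbers from -0.51 to 0.39. Of the libraries, 3 correlated best with their own number. With the number as a replicate block 0 of the 10 genes were called and 5 had an unadjusted p under 0.05 in homozygous against wild-type rats, with a median of 0.30. Over all loci, 4697 of 39057 had such a p in that fit. With 3 rats a genotype the intervals of single genes are wide, and a p that misses the threshold does not show equal levels.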
